A study of Mus musculus with 96 samples.

Results

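The genes described here are 10 genes that mark disease-associated microglia: Itgax, Clec7a, Cst7, Gpnmb, Spp1, Trem2, Tyrobp, Lpl, Axl and Apoe. They were chosen by symbol, and each had 1 row among the 32594 gene rows of both count tables, so 10 of 10 were found. Bulk mRNA-seq was performed on the ipsilateral hippocampus, thalamus and hypothalamus of adult male C57BL/6 mice aged 8 to 10 weeks, in 96 libraries that form 24 groups of 4. Mice received a controlled cortical impact (TBI) or sham injury, which was anesthesia with a scalp incision and no craniectomy, and were given vehicle (VH) or candesartan (CD), a blocker of the angiotensin type 1 receptor, at 0.1 mg/kg/day. Brains were taken at 3 days post-injury (dpi), after intraperitoneal doses at 6, 24 and 48 h, or at 29 dpi, after a dose at 6 h and an osmotic pump implanted at 24 h. The 4 groups of each region and time point were therefore Sham + VH, Sham + CD, TBI + VH and TBI + CD, and the labels name no transgene or deletion. The RNA samples of highest quality were the ones sequenced, and the labels do not say whether the regions of 1 mouse share a number.

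Microglia are the resident macrophages of the brain. In uninjured tissue they express a homeostatic set of genes such as P2ry12 and Tmem119. In neurodegeneration, demyelination and injury, part of the population moves to a state first named from mouse models of Alzheimer's disease, in which phagocytic, lysosomal and lipid-handling genes are raised. The lipid-sensing receptor TREM2 and its signalling adaptor TYROBP (DAP12), which recruits the kinase SYK, are needed for the full state to form in those models. The other genes are effectors of the state: CLEC7A (dectin-1) is a phagocytic receptor for beta-glucan that also signals through SYK, AXL is a TAM family receptor for apoptotic cells, ITGAX (CD11c) is an integrin alpha chain that pairs with the beta2 chain, CST7 (cystatin F) inhibits lysosomal cathepsins, GPNMB is a lysosomal glycoprotein, SPP1 (osteopontin) is a secreted integrin and CD44 ligand, and APOE and LPL carry and hydrolyse lipoproteins. Astrocytes are a major source of Apoe in brain, and Axl and Lpl are also expressed outside microglia.

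The gene rows of a library summed to between 17150610 and 31253784 counts at 3 dpi and between 6663629 and 38589791 at 29 dpi. Levels are given as CPM, the read count of a gene scaled to the size of its library, and differences as log2 fold changes with their standard errors (SE). A gene was called a differentially expressed gene (DEG) when the Benjamini-Hochberg adjusted p (FDR) of edgeR's quasi-likelihood test was under 0.05 and the absolute log2 fold change was over 0.32. Itgax, Clec7a and Cst7 lay near the detection limit in sham tissue. In the hippocampus at 3 dpi, Clec7a and Cst7 reached the filter's minimum of 0.405 CPM in 0 of 8 sham and 8 of 8 injured libraries, and Itgax in 1 and 8, so these genes entered the test through the injured groups. All 18 homeostatic microglia genes were measurable in every region and time point. In bulk tissue, more cells of a type and more RNA per cell cannot be told apart. The hippocampal Sham + VH libraries at 3 dpi also held choroid plexus RNA: 12 choroid plexus genes summed to 4402, 4705 and 6753 CPM in 3 of these 4 libraries and to 210 CPM in replicate 3. No Sham + CD library exceeded 121 CPM and no TBI + VH library 172 CPM, while 1 of the TBI + CD libraries reached 2724 CPM.

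Upstream sequence of the genes whose promoter held a searched motif is shown because most of the genes rose together after injury. RefSeq start sites on GRCm38.p6 gave 12 promoter windows, from 250 bases before to 50 after the start, for 8 of the 10 genes; Tyrobp and Lpl were not in the table. Both strands were searched for GAGGAAG (a core of the macrophage factor PU.1), CACGTG and CATGTG (E-boxes bound by the lysosomal MiT/TFE factors) and TGACTCA or TGAGTCA (AP-1, which are each other's reverse complement). Itgax held TGAGTCA at bases -56 to -50 from its start (window shown chr7:128129300-128129549, plus strand), and Gpnmb held TGACTCA at bases 9 to 15 after its start (chr6:49036268-49036547, plus strand). GAGGAAG lay at -113 to -107 in 1 of 2 Spp1 windows (chr5:104434861-104435110, plus strand), and its reverse complement at -41 to -35 in Trem2 (chr17:48346151-48346400, plus strand) and at -131 to -125 in Axl (not shown). Neither E-box occurred in any of the 12 windows, and the Clec7a, Cst7 and Apoe windows held none of the motifs. Capitals mark the motif in each sequence, written 5′ to 3′.
Itgax: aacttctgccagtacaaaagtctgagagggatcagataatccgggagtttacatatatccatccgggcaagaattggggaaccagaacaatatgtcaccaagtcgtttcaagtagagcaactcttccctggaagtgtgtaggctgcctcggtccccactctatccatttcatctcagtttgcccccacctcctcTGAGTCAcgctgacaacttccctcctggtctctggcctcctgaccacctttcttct
Gpnmb: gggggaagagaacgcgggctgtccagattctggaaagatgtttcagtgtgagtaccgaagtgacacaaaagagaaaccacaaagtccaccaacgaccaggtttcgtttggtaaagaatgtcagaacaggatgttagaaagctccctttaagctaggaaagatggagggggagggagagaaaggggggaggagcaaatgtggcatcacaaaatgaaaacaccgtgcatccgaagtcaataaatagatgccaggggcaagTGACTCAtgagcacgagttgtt
Spp1: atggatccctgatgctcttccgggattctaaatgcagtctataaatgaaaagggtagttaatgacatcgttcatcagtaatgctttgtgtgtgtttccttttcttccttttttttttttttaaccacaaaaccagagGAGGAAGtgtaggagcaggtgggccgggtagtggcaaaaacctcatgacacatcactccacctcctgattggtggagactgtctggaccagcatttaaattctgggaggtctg
Trem2: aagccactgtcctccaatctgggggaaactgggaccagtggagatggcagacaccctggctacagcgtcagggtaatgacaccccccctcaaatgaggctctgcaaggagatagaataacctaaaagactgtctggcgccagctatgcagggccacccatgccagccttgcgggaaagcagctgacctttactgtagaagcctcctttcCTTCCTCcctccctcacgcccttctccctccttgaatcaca
Of all 32851 promoters in the table, 13.6% held GAGGAAG, 5.2% an AP-1 motif, 7.15% CACGTG and 14.2% CATGTG.

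The genes differed widely in level before any injury. Per kilobase of exon (GENCODE vM21 models on GRCm38), the hippocampal Sham + VH libraries at 3 dpi held Apoe at 781 ± 40.6 CPM per kb (SD, n = 4), followed by Tyrobp at 18.8 ± 1.13, Axl at 11.9 ± 0.731, Lpl at 3.00 ± 0.347, Spp1 at 2.71 ± 1.40 and Trem2 at 1.81 ± 0.250 on the same scale. Gpnmb stood at 0.747 ± 0.184, Cst7 at 0.110 ± 0.0591, Clec7a at 0.0787 ± 0.0238 and Itgax at 0.0563 ± 0.0351 CPM per kb. The ranges of Lpl, Spp1 and Trem2 reached or nearly reached one another, and the ranges of Cst7, Clec7a and Itgax overlapped. The length of a gene is here the union of all its annotated exons, such as 667 bases for Tyrobp, 4946 for Trem2 and 10478 for Lpl. It does not depend on which transcripts the libraries held, so the order rests on the annotation as well as on the counts. In TBI + VH at 3 dpi the order changed: Tyrobp (79.8 ± 21) and Spp1 (43.0 ± 27.6 CPM per kb) stood next below Apoe (971 ± 24.6), then Axl (19.4 ± 2.08), Trem2 (7.99 ± 2.19) and Gpnmb (7.34 ± 3.02), while Lpl stood at 2.99 ± 0.412.

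The first comparison asked how injury changed these genes in the hippocampus at 3 dpi. In TBI + VH against Sham + VH, 8 of the 10 genes rose: the receptor pair Trem2 and Tyrobp, the phagocytic receptors Clec7a and Axl, the integrin chain Itgax, the lysosomal proteins Cst7 and Gpnmb, and the secreted ligand Spp1. Apoe was higher by less than the fold threshold, and Lpl, the lipoprotein hydrolase, stood at the same level in both groups. Of all 16756 genes tested, 10.7% were DEGs and 8.99% were DEGs with higher expression. The median log2 fold change of the 10 genes was 2.21, against -0.01 over all genes tested. Without the filter on low counts 8 of 10 were again called.

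Trem2 (chr17:48346401-48354147, plus strand) read 7.46, 8.57, 10.4 and 9.40 CPM in the 4 Sham + VH libraries and 47.5, 25.2, 48.4 and 37.0 CPM in TBI + VH. Every injured library stood above every sham library, and replicate 2 was the lowest of the injured. The log2 fold change was 2.15 ± 0.19 (FDR = 7.59e-07). Tyrobp (chr7:30413760-30417585, plus strand), whose product carries the TREM2 signal, read 13.4, 12.1, 13.04 and 11.7 CPM in Sham + VH and 64.0, 33.8, 62.9 and 52.2 CPM in TBI + VH. The groups again did not overlap, replicate 2 was again the lowest injured library, and the change of 2.09 ± 0.18 (FDR = 4.87e-07) was close to that of its partner. Clec7a (chr6:129461591-129472779, minus strand) was almost absent from sham tissue, with 0.120, 0.250, 0.205 and 0.256 CPM, and read 5.33, 1.41, 6.21 and 3.32 CPM after injury. This was a log2 fold change of 4.27 ± 0.45 (FDR = 4.32e-06). Axl (chr7:25757273-25788705, minus strand) was already high in sham tissue, at 57.1, 56.6, 62.3 and 63.9 CPM, and read 105, 83.1, 105 and 97.9 CPM after injury. Its rise of 0.71 ± 0.09 on the log2 scale (FDR = 1.68e-05) was the smallest of the 8.

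Among the effectors, Cst7 (chr2:150570415-150578944, plus strand) had the largest log2 fold change of the 10 genes in this comparison, 4.60 ± 0.40 (FDR = 5.57e-07). It read 0.0399, 0.166, 0.0820 and 0.146 CPM in Sham + VH and 3.33, 1.81, 3.61 and 2.25 CPM in TBI + VH. Gpnmb (chr6:49036546-49070929, plus strand) read 3.35, 5.199, 6.23 and 4.68 CPM in sham and 60.0, 18.7, 59.4 and 53.1 CPM in injured libraries. Replicate 2 of the injured group stood well below the other 3 but above every sham library, and the change was 3.30 ± 0.32 (FDR = 1.85e-06). Spp1 (chr5:104435118-104441050, plus strand), the osteopontin gene, varied most among the injured libraries, at 106, 9.92, 105 and 62.2 CPM against 2.35, 2.87, 5.33 and 7.32 CPM in sham. Its log2 fold change of 3.98 ± 0.76 (FDR = 0.00143) had the widest error of the 10. With a choroid plexus score as a covariate it was 2.09 with an FDR of 0.311, the only one of the 8 calls lost in that fit. Most Sham + VH libraries held much choroid plexus RNA and no TBI + VH library did, so that fit can hardly separate the score from injury. Itgax (chr7:128129547-128150657, plus strand) read 0.200, 0.125, 0.246 and 0.512 CPM in sham and 1.54, 0.554, 1.81 and 1.44 CPM after injury. The groups were separated by a narrow gap at replicate 2, with a change of 2.28 ± 0.43 (FDR = 0.00124).

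**Figure D1:**
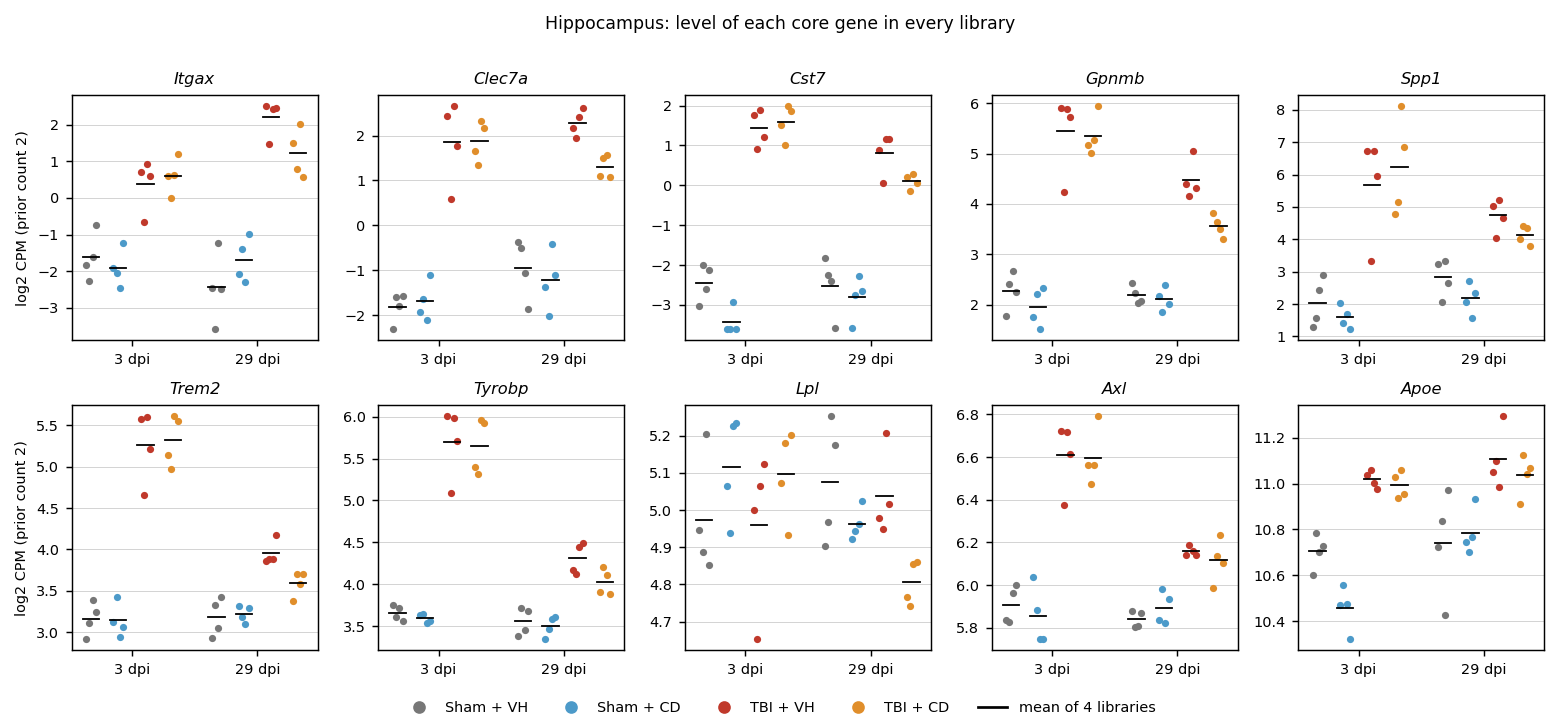
Each point is the CPM of 1 hippocampal library on a log2 axis (prior count 2 added), by gene and group, at 3 dpi and 29 dpi, and lines are means of 4 libraries. Trem2 in TBI + VH at 3 dpi lies between 25.2 and 48.4 CPM before the log, above every Sham + VH library, and Lpl lies between 25.1 and 38.0 CPM over all groups.

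The lipid genes behaved differently. Apoe (chr7:19696109-19699188, minus strand), the main apolipoprotein of brain, read 1556, 1764, 1665 and 1696 CPM in Sham + VH and 2101, 2133, 2054 and 2013 CPM in TBI + VH. The groups did not overlap, but the change of 0.31 ± 0.06 (FDR = 0.00104) fell just short of the fold threshold, so Apoe was not a DEG; it was one with only the libraries of both groups in the fit and in 4 of the fits that left out 1 library. Lpl (chr8:68880491-68907448, plus strand) read 30.8, 29.5, 36.8 and 28.8 CPM in sham and 31.9, 25.1, 33.4 and 34.8 CPM after injury. The values overlapped throughout, with a difference of -0.00 ± 0.10 (FDR = 0.99).

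Replicate 2 of TBI + VH had the lowest value of its group for all 8 risen genes. The same library had the lowest summed CPM of 8 cycling-cell genes among the injured libraries, 20.3 against 56.1 to 99.7 in the other 3, and a summed astrocyte level of 7277 CPM against 8884 to 9489. The summed level of 18 homeostatic microglia genes was 2226 CPM in it, within the range of 2215 to 2653 CPM of the group and above the 1337 to 1449 CPM of Sham + VH. Of 12 marker genes of monocytes and border macrophages, the cells most easily confused with microglia by these genes, the summed level was 39.3 to 50.5 CPM in TBI + VH against 37.9 to 45.0 CPM in Sham + VH, and 3 of 10 tested were DEGs, all higher. None of these 12 was at 0 in either group. Neutrophil genes summed to 1.95 to 3.00 CPM in TBI + VH. Of the astrocyte genes 6 of 8 rose, their sum being 3942 to 4739 CPM in Sham + VH, and 8 of 8 cycling-cell genes rose. The part of these cells in the rise of the 10 genes was not tested.

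Genes of the same pathways were counted from lists. Of the other disease-associated microglia genes, 26 of 30 tested were called higher (median log2 fold change 1.45), among them Cd52 (4.08 ± 0.34), the immunoglobulin-like receptor Lilrb4 (3.88 ± 0.73), the lysozyme Lyz2 (3.68 ± 0.40) and the NADPH oxidase subunit Cybb (2.64 ± 0.44). Timp2, Igf1, Hif1a and Cadm1 did not pass the test. All 18 genes of the homeostatic microglia list were also called higher (median 0.89), among them Fcrls (2.53 ± 0.24) and Olfml3 (1.99 ± 0.16). The genes of that list thus rose along with the disease-associated ones in this tissue. Of the genes that signal below TREM2 and CLEC7A, 9 of 14 rose (median 1.19), among them the exchange factor Vav1 (2.06 ± 0.24), the SHIP1 phosphatase Inpp5d (1.80 ± 0.15), the SHP-1 phosphatase Ptpn6 (1.78 ± 0.22) and the adaptor Lat2 (1.76 ± 0.23). Several of these list genes were chosen with earlier results of these libraries known, so their counts are a description.

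The partners of the single genes moved unevenly. Of the 6 tested TAM genes other than Axl, 2 rose, the bridging ligands Lgals3 (2.31 ± 0.45) and Pros1 (1.58 ± 0.18), while the sister receptors Mertk (0.27) and Tyro3 (0.00) and the ligand Gas6 (-0.32) did not pass the test. Of 11 tested partners of osteopontin and of the beta2 integrins, 9 rose, among them the osteopontin receptor Cd44 (2.73 ± 0.37), the beta2 chain Itgb2 that pairs with Itgax (2.04 ± 0.17), Itgam (1.90 ± 0.13) and Icam1 (1.72 ± 0.28). Of 19 lipoprotein and cholesterol genes, 6 rose and 1 fell (median 0.35): the lipid droplet protein Plin2 (1.66 ± 0.30) and the cholesterol exporter Abca1 (1.18 ± 0.14) were the largest of these rises. Of 11 genes for PU.1, the MiT/TFE factors and other macrophage factors, 7 rose and 1 fell (median 0.64), and the risen ones included Runx1 (2.07 ± 0.28), Spi1, which encodes PU.1 (1.997 ± 0.180), and Irf8 (1.85 ± 0.18).

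TBI + CD in the hippocampus at 3 dpi gave the same 8 DEGs among the 10 genes, in a comparison in which 12.1% of all genes were DEGs and 10.3% were DEGs with higher expression. It shares the Sham + VH libraries with the comparison above, as do all comparisons with Sham + VH within 1 region and time point. The log2 fold changes were 4.74 ± 0.40 for Cst7, 4.66 ± 0.77 for Spp1, 4.13 ± 0.45 for Clec7a, 3.11 ± 0.32 for Gpnmb, 2.43 ± 0.42 for Itgax, 2.18 ± 0.19 for Trem2, 2.03 ± 0.18 for Tyrobp and 0.69 ± 0.09 for Axl. Spp1 ranged from 27.6 to 277 CPM over the 4 TBI + CD libraries. Astrocyte genes summed to 7933 to 10264 CPM in TBI + CD against 3942 to 4739 CPM in Sham + VH, and cycling-cell genes to 33.4 to 114 CPM against 6.34 to 8.24 CPM, without overlap. Monocyte and border macrophage genes summed to 42.3 to 63.3 CPM against 37.9 to 45.0 CPM, the highest in TBI + CD replicate 3, the library with Spp1 at 277 CPM. The part of these cells in the changes of the 10 genes was not tested. Against Sham + CD instead, 9 of the 10 genes were called, Apoe being added with a log2 fold change of 0.54, in a comparison in which 20.1% of all genes were DEGs.

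Whether candesartan changed these genes in the injured hippocampus at 3 dpi was tested directly. Between TBI + CD and TBI + VH, 0 of 10 genes were called, 0 had an unadjusted p under 0.05 (732 of 16756 over all genes), DESeq2 also called 0, and 0% of all genes were DEGs. The differences ran from -0.19 ± 0.27 for Gpnmb to 0.69 ± 0.61 for Spp1. Trem2 differed by 0.03 ± 0.18 and Tyrobp by -0.06 ± 0.16. In sham mice, Sham + CD against Sham + VH gave 0 calls among the 10 (1.5% of all genes, and 0 of 10 by DESeq2) with 2 genes at an unadjusted p under 0.05 (2511 of 16756 over all genes). Apoe was lower in Sham + CD, at 1419, 1507, 1423 and 1280 CPM, with no overlap and an FDR of 0.0375. Its difference of -0.25 ± 0.06 was under the fold threshold, and with the choroid plexus covariate the FDR was 0.728. No Sham + CD library held much choroid plexus RNA, unlike most Sham + VH libraries, so that fit can hardly separate the score from the drug. Cst7 was counted once in all 4 Sham + CD libraries together (0, 0, 0.0496 and 0 CPM), so its fitted difference is not given a size, and the FDR was 0.176. The test of whether injury and candesartan combined differently from the sum of both gave 0 calls among the 10 and 0% of all genes, with Apoe (0.22 ± 0.08) and Cst7, which is given no size here either, at an unadjusted p under 0.05 (2196 of 16756 over all genes). In this test DESeq2 called 0 of the 10 and 325 of all genes, and edgeR with no filter 118, with the replicate block 106 and with 1 library left out from 0 to 431, of which 0 were among the 10 in each case.

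At 29 dpi the hippocampal response had a different shape. In TBI + VH against Sham + VH, 7 of the 10 genes were DEGs with higher expression, while 0.529% of all 16832 genes were DEGs and 0.523% were DEGs with higher expression. These 7 made up 7 of the 88 higher DEGs of the whole comparison. Itgax, not Cst7, now had the largest change of the 10, and Trem2 and Tyrobp had changes of under 1 on the log2 scale. The median log2 fold change of the 10 genes was 1.31, against -0.01 over all genes tested. At this time point Cst7 reached the filter's minimum in 0 of 8 sham libraries, Itgax in 1 of 8 and Clec7a in 4 of 8, and in all 8 injured libraries each. Without the filter, 7 of 10 were again called.

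Itgax read 0.0983, 0, 0.340 and 0.0963 CPM in Sham + VH and 5.58, 2.71, 5.26 and 5.40 CPM in TBI + VH. All injured libraries were several times higher than the highest sham library, and higher than the injured libraries of 3 dpi (0.554 to 1.81 CPM), which were scaled separately. The log2 fold change was 4.65 ± 0.49 (FDR = 7.98e-05). Clec7a read 0.688, 0.624, 0.393 and 0.193 CPM in sham and 4.45, 3.76, 5.26 and 6.01 CPM after injury, a change of 3.31 ± 0.32 (FDR = 4.19e-05). Cst7 read 0.197, 0.125, 0.105 and 0 CPM in sham and 1.76, 0.962, 2.16 and 2.17 CPM after injury, a change of 3.80 ± 0.40 (FDR = 6.96e-05). In injured tissue Clec7a lay within its range of 3 dpi, whereas Cst7 reached only into the lower part of its range of 1.81 to 3.61 CPM at 3 dpi, on separately scaled levels.

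Gpnmb (2.33 ± 0.19) had the lowest FDR of all 16832 genes in this comparison, 1.35e-05, equal to that of Lyz2. It read 5.28, 4.62, 4.03 and 4.14 CPM in sham and 20.8, 17.7, 33.2 and 19.8 CPM after injury. Spp1 read 9.27, 4.12, 10.02 and 6.16 CPM in sham and 32.9, 16.3, 37.2 and 25.2 CPM after injury, without overlap (1.83 ± 0.28, FDR = 0.00253). Trem2 read 7.57, 9.99, 8.22 and 10.7 CPM in sham and 14.5, 14.7, 14.6 and 18.01 CPM after injury (0.79 ± 0.12, FDR = 0.00227). Tyrobp read 10.4, 13.1, 10.9 and 12.7 CPM in sham and 17.9, 17.3, 21.7 and 22.4 CPM after injury (0.78 ± 0.11, FDR = 0.00147). The receptor pair thus remained above sham in all 4 libraries, with small gaps. Axl (70.5 to 72.8 against 55.8 to 58.6 CPM) did not overlap either, but its change of 0.32 ± 0.05 (FDR = 0.00582) was at the fold threshold and was not called, though it was in 4 of the fits that left out 1 library. With FDR alone Axl was called as well, which gives 8 of the 10 and 92 genes in all. DESeq2 also called 8 of the 10, with Apoe added, and 140 genes in all. By edgeR Apoe stood at 0.36 ± 0.10 (FDR = 0.158) and Lpl at -0.04 ± 0.08.

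Other genes of the state were fewer at 29 dpi. Of the other disease-associated microglia genes 10 of 30 were called higher (median 0.34), led by Lyz2 (2.67 ± 0.23), Cybb (2.44 ± 0.40), Lilrb4 (2.30 ± 0.35) and Cd52 (1.501 ± 0.282). Of 18 homeostatic genes 2 were called, among them the growth factor receptor Csf1r (0.39 ± 0.06). The phosphatase Ptpn6 (0.63 ± 0.13), the exporter Abca1 (0.48 ± 0.08), and Cd44 (1.10 ± 0.18) with Itgb2 (0.70 ± 0.09) were the called genes of the signalling, lipoprotein and integrin lists, whose tested members numbered 13, 18 and 11. No TAM gene and no gene of the PU.1 and MiT/TFE list was called by edgeR, although Lgals3 stood at 1.25. No marker of monocytes, border macrophages or cycling cells was called in this comparison, and the summed monocyte and border macrophage level was 31.1 to 54.2 CPM against 40.6 to 51.3 CPM in Sham + VH. Of 8 astrocyte genes Gfap was called (1.40 ± 0.23), and their sum was 4860 to 6498 CPM against 4288 to 4485 CPM. Choroid plexus genes summed to 85.9 to 7574 CPM in Sham + VH and to 49.6 to 2320 CPM in TBI + VH. The part of these cells in the changes of the 10 genes was not tested.

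**Figure D2:**
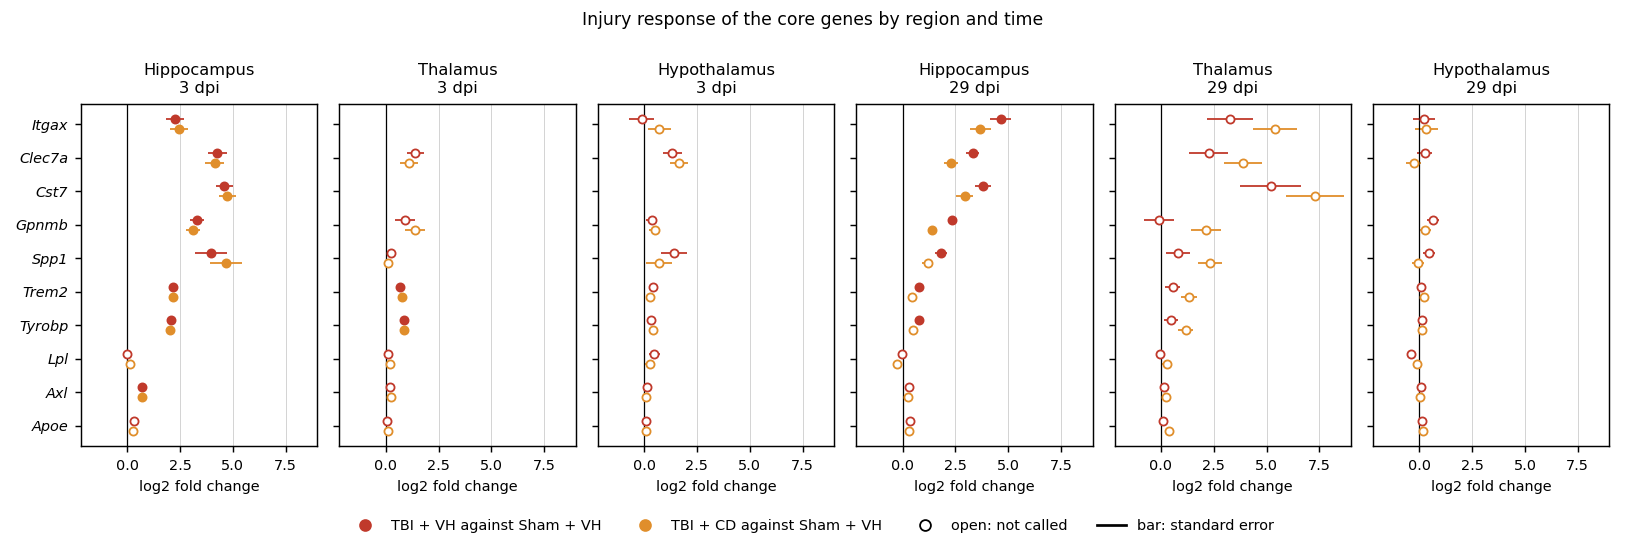
Points are log2 fold changes of TBI + VH and TBI + CD against Sham + VH for each gene in the 3 regions at both time points, bars are 1 SE, filled points are DEGs and open points are not. In the hippocampus the change of Cst7 in TBI + VH goes from 4.60 at 3 dpi to 3.80 at 29 dpi and that of Itgax from 2.28 to 4.65.

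The injury responses at 3 dpi and 29 dpi were set against each other in 1 fit over all hippocampal libraries. With vehicle, 3 of 10 genes had a larger response at 3 dpi (3.16% of all genes called, 3.07% higher). These were Trem2 (difference of log2 fold changes 1.33 ± 0.24, FDR = 0.000933), Tyrobp (1.29 ± 0.22, FDR = 0.000484) and Axl (0.39 ± 0.10, FDR = 0.0241), which are the receptor pair and 1 of the other receptors. Itgax went the other way by -2.39 ± 0.74 and was not called (FDR = 0.0782), though it was called with the replicate number as a block, by DESeq2 and without Sham + VH replicate 3 of 29 dpi. Clec7a (0.95 ± 0.61), Cst7 (0.79 ± 0.68), Gpnmb (0.97 ± 0.40) and Spp1 (2.18 ± 0.84) were not called either, but without the TBI + VH library of replicate 2 at 3 dpi Gpnmb and Spp1 were, which gives 5 calls. The call of Axl was lost in 8 of the fits that left out 1 library: Sham + VH replicates 1 and 2 or TBI + VH replicates 1 and 3 of 3 dpi, and replicates 1 and 4 of either group of 29 dpi. In the same contrast 12 of 30 other disease-associated genes and 13 of 18 homeostatic genes were called as larger at 3 dpi.

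With candesartan, 6 of 10 genes had a larger response at 3 dpi, measured against Sham + CD (6.83% of all genes called, 6.34% higher). These were Cst7, Spp1 (3.35 ± 0.91), Gpnmb (1.96 ± 0.40), Trem2 (1.83 ± 0.23), Tyrobp (1.59 ± 0.22) and Axl (0.54 ± 0.10). Cst7 is given no size, since Sham + CD at 3 dpi held 1 count of it in all, and it was not called without Sham + CD replicate 3 of 29 dpi. Spp1 lost its call without TBI + CD replicate 3 of 3 dpi, the library at 277 CPM, or without Sham + CD replicate 2 of 29 dpi. Itgax stood at -0.29 ± 0.77. Of the other lists, 21 of 30 disease-associated genes and 17 of 18 homeostatic genes were called as larger at 3 dpi. Whether the vehicle and candesartan differences over time differ was not tested.

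In injured mice at 29 dpi all 10 genes were lower in the hippocampus with candesartan than with vehicle, and none was called by edgeR. With TBI + CD against Sham + VH, 4 of 10 genes were DEGs (0.119% of all genes, 0.113% higher): Itgax (3.67 ± 0.50), Cst7 (2.95 ± 0.41), Clec7a (2.30 ± 0.33) and Gpnmb (1.38 ± 0.19). Without Sham + VH replicate 3 Clec7a and Cst7 were no longer called (FDR = 0.0506 each), leaving 2 calls, and Itgax was not called with only the libraries of both groups in the fit (FDR = 0.0536). Spp1 (1.19 ± 0.27, FDR = 0.158), Tyrobp (0.49 ± 0.11, FDR = 0.134) and Trem2 (0.43 ± 0.12, FDR = 0.30) did not pass the test. DESeq2 called 6 of the 10 and 52 genes in all, with Spp1 (adjusted p = 0.0456) and Tyrobp (adjusted p = 0.0145) added. Axl (0.28 ± 0.05, FDR = 0.0497) was under the fold threshold, and Apoe (0.28 ± 0.10) and Lpl (-0.28 ± 0.08) were not called. Against Sham + CD, the drug-matched sham, 6 of 10 genes were called, with Spp1 (1.93) and Tyrobp (0.52) added, while 0.356% of all genes were. Of the other lists, 2 of 30 disease-associated genes, Lyz2 (1.73 ± 0.23) and Cd68 (0.68 ± 0.12), and 0 of 18 homeostatic genes were called against Sham + VH. Astrocyte genes summed to 4794 to 5307 CPM in TBI + CD against 4288 to 4485 CPM in Sham + VH, without overlap, and their part in the changes of the 10 genes was not tested.

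The direct test between TBI + CD and TBI + VH gave 0 DEGs among the 10 and 0% among all genes. Of the 10, 8 had an unadjusted p under 0.05 and were lower, against 3.02% of all genes, and 4 of 10 had no overlap between groups, against 1.79% of all genes with every TBI + CD library lower. DESeq2 called 1 of the 10, Gpnmb, and 4 genes in all. Gpnmb read 20.8, 17.7, 33.2 and 19.8 CPM with vehicle and 13.9, 12.3, 11.2 and 9.84 CPM with candesartan. All candesartan libraries were below all vehicle libraries and above all sham libraries, with a difference of -0.95 ± 0.17 (unadjusted p = 3.9e-05, FDR = 0.219). Clec7a read 2.06, 2.73, 2.90 and 2.01 CPM with candesartan against 3.76 to 6.01 CPM with vehicle (-1.01 ± 0.26, FDR = 0.882). Trem2 read 10.3, 12.95, 11.9 and 12.999 CPM against 14.5 to 18.01 CPM (-0.36 ± 0.11, FDR = 0.882). Lpl read 27.1, 26.7, 28.9 and 29.0 CPM against 30.8 to 36.8 CPM, and also below the 29.8 to 38.0 CPM of Sham + VH (-0.23 ± 0.08, FDR = 0.882).

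The remaining genes overlapped between the injured groups at 29 dpi. Itgax read 2.75, 1.64, 3.94 and 1.41 CPM with candesartan, of which replicates 1 and 3 stood above the lowest vehicle library (-0.98 ± 0.34). Cst7 read 1.07, 0.821, 1.14 and 0.950 CPM (-0.86 ± 0.28), Spp1 16.2, 20.99, 20.5 and 13.8 CPM (-0.64 ± 0.26) and Tyrobp 14.97, 18.4, 17.2 and 14.7 CPM (-0.28 ± 0.11). Axl (-0.04 ± 0.05) and Apoe (-0.07 ± 0.10) had the smallest differences of the 10. The median of the 10 differences was -0.50, against -0.00 over all genes, -0.14 over the other disease-associated genes and -0.06 over the homeostatic genes. The test for a combined effect of injury and candesartan gave 0 calls among the 10, 0% among all genes and 0 of 10 by DESeq2, with Gpnmb (-0.86 ± 0.26) and Trem2 (-0.41 ± 0.17) at an unadjusted p under 0.05 (890 of 16832 over all genes). In sham mice, Sham + CD against Sham + VH also gave 0 calls (0% of all genes, 0 of 10 by DESeq2), with 1 gene, Spp1 (-0.74 ± 0.30), at an unadjusted p under 0.05 (810 of 16832 over all genes). The summed level of the 18 homeostatic genes was 1389 to 1657 CPM in TBI + CD and 1509 to 1777 CPM in TBI + VH, and the part of microglial content in these differences was not tested.

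**Figure D3:**
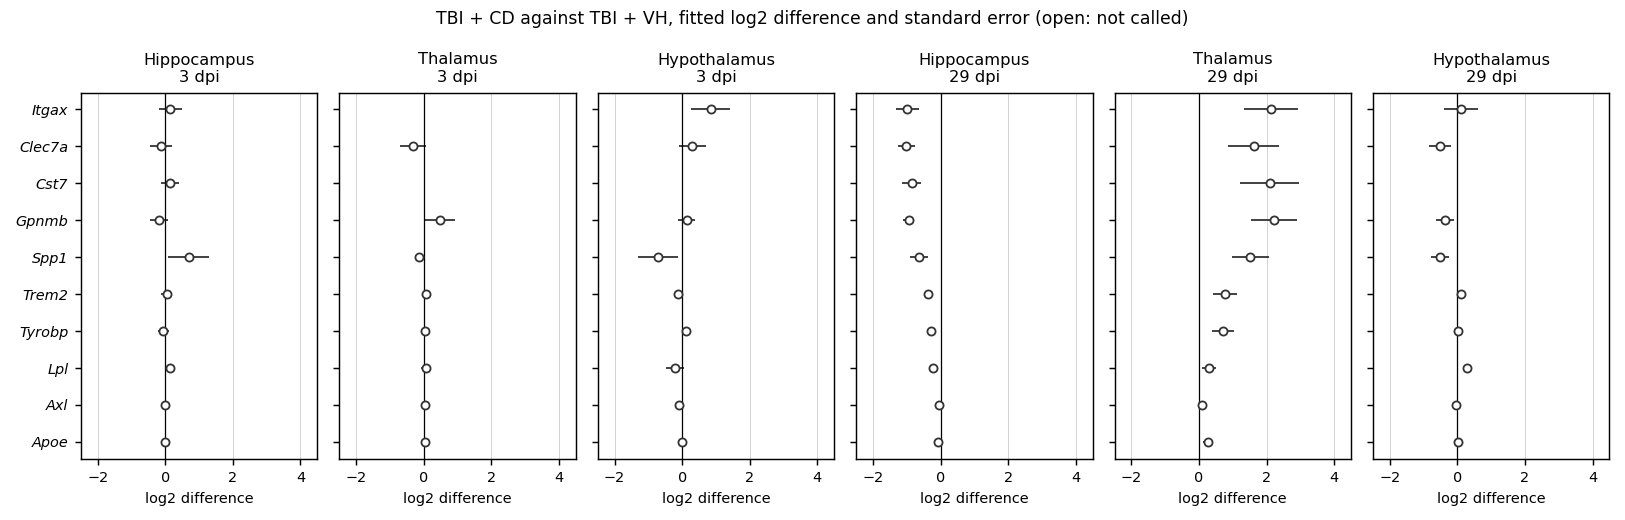
Points are log2 differences of TBI + CD against TBI + VH for each gene, by region and time point, and bars are 1 SE. In the hippocampus at 29 dpi the values run from -1.01 for Clec7a to -0.04 for Axl, and no point is a DEG.

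In the thalamus at 3 dpi, which lies beneath the hippocampus, the receptor pair Trem2 and Tyrobp rose and the other 6 of the 8 genes tested were not called; Itgax and Cst7 did not pass the filter on low counts. With no filter Cst7 was called too (3.16, FDR = 0.035) among 46 genes in all, and DESeq2 also called 3 of the 10 among 91 genes in all. The share of DEGs among all genes was 0.298% for TBI + VH, all of them higher (0.298%). Tyrobp read 10.97, 9.32, 10.8 and 9.98 CPM in Sham + VH and 18.6, 20.2, 17.4 and 17.6 CPM in TBI + VH. The groups were well apart (0.84 ± 0.08), and the FDR of 0.000232 was the lowest of all 16762 genes in this comparison. Trem2 read 9.29, 7.46, 7.18 and 7.10 CPM in sham and 13.6, 12.96, 11.6 and 11.6 CPM after injury (0.68 ± 0.12, FDR = 0.016). Its call was lost when the fit held only the libraries of both groups, and without Sham + VH replicate 2, 3 or 4 or TBI + VH replicate 1 or 2. Clec7a read 0.123, 0.190, 0.572 and 0.276 CPM in sham and 0.845, 0.878, 0.591 and 0.759 CPM after injury, without overlap, at 1.41 ± 0.41 (FDR = 0.346). Cst7 was at or under 0.0761 CPM in Sham + VH and at 0.211 to 0.610 CPM in TBI + VH. Gpnmb (0.89 ± 0.48), Spp1 (0.26 ± 0.12), Axl (0.18 ± 0.07), Lpl (0.12 ± 0.15) and Apoe (0.05 ± 0.09) were not called.

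With candesartan the same pair was called in the thalamus, Tyrobp at 0.88 ± 0.08 and Trem2 at 0.76 ± 0.12, the latter not with only the libraries of both groups in the fit (FDR = 0.0909) (0.418% of all genes, all of them higher, 0.418%). TBI + CD against TBI + VH, Sham + CD against Sham + VH and the combined effect each gave 0 calls among the 8 and 0% of all genes, DESeq2 also gave 0 in each, and the unadjusted p was under 0.05 for 0, 1 and 1 of the genes and for 344, 1152 and 386 of all 16762 genes. Among the lists, 8 of 18 homeostatic genes rose in TBI + VH (median 0.50), led by Fcrls (1.18 ± 0.15), Olfml3 (1.09 ± 0.12) and Tmem119 (0.58 ± 0.10), and 3 of 29 other disease-associated genes did, Ccl6 (1.24 ± 0.23), Cd68 (1.03 ± 0.15) and Ctsz (0.50 ± 0.10). Cycling-cell genes rose as well, 3 of 7 tested, including Top2a (2.55 ± 0.35) and Mki67 (2.25 ± 0.31). No gene of the monocyte and border macrophage list was called, and its sum was 14.9 to 24.3 CPM in TBI + VH against 16.1 to 20.4 CPM in Sham + VH. Astrocyte genes summed to 3099 to 3744 CPM in TBI + VH and 3233 to 3700 CPM in TBI + CD against 2858 to 3036 CPM in Sham + VH, without overlap. Cycling-cell genes summed to 9.10 to 13.99 CPM in TBI + VH and 9.68 to 11.4 CPM in TBI + CD against 3.89 to 4.83 CPM in Sham + VH, also without overlap. Choroid plexus genes summed to 1154 and 3498 CPM in Sham + VH replicates 1 and 3 and to at most 62.9 CPM in the other Sham + VH and TBI + VH libraries. The part of these cells in the values of the 10 genes was not tested.

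The vehicle responses of hippocampus and thalamus at 3 dpi were compared in 1 fit of the 48 libraries of that time point. Of the 10 genes, 6 had a larger response in the hippocampus (3.88% of all genes called, 3.51% higher). The differences of log2 fold changes were 3.69 ± 0.85 for Spp1, 2.83 ± 0.66 for Clec7a, 2.39 ± 0.55 for Gpnmb, 1.44 ± 0.21 for Trem2, 1.21 ± 0.19 for Tyrobp and 0.50 ± 0.10 for Axl. Clec7a was not called without Sham + VH replicate 3 of the thalamus, the sham library at 0.572 CPM. Itgax (0.71 ± 0.73), Cst7 (1.41 ± 0.997), Apoe (0.24 ± 0.11) and Lpl (-0.15 ± 0.23) were not called.

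At 29 dpi single thalamic libraries held some of the highest levels of the series, but no gene was called by edgeR. In TBI + VH, 7 of the 10 genes were higher in every injured library than in every Sham + VH library, namely Itgax, Clec7a, Cst7, Spp1, Trem2, Tyrobp and Apoe, against 1.08% of all genes. Itgax and Cst7 reached the filter's minimum of 0.373 CPM in 0 of 8 sham libraries and 7 of 8 injured ones, and Clec7a in 2 and 7, so these 3 entered through the injured libraries and the count of 7 is a description. By edgeR 0 of 10 were DEGs (0% of all genes), 3 had an unadjusted p under 0.05 and were higher (0.832% of all genes), and DESeq2 called 0. Those 3 were Cst7, Itgax and Clec7a, the genes that entered through the injured libraries, so this count is a description as well. Cst7 read 0, 0, 0.228 and 0.0302 CPM in Sham + VH and 3.82, 2.72, 0.933 and 1.58 CPM in TBI + VH (5.20 ± 1.44, unadjusted p = 0.00242). No Sham + VH library held more than 5 counts of Cst7, so the fitted value is a poor measure of the size of its change. Itgax read 0.179, 0.321, 0.0456 and 0.272 CPM in sham and 3.49, 1.93, 0.871 and 1.71 CPM after injury (3.27 ± 1.09), and Clec7a read at most 0.410 CPM in any Sham + VH library and 0.746 to 1.47 CPM after injury (2.25 ± 0.94). Spp1 (0.79 ± 0.57), Trem2 (0.56 ± 0.36) and Tyrobp (0.46 ± 0.34) had standard errors over 0.3 on the log2 scale. The spread of each gene was estimated over all 16 libraries, the candesartan groups included. With only the libraries of both groups in the fit, 0 of the 10 and 0 of all genes were called as well. The summed level of the homeostatic genes was 1172 to 1299 CPM in TBI + VH against 1028 to 1143 CPM in Sham + VH, without overlap. Choroid plexus genes summed to 2415 and 3955 CPM in Sham + VH replicates 3 and 4 and to at most 351 CPM in the other libraries of both groups. The part of these cells in the values of the 10 genes was not tested.

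TBI + CD replicate 4 of the thalamus at 29 dpi stood far above every other library of that set. Cst7 read 0.145, 1.95, 7.07 and 29.7 CPM in the 4 TBI + CD libraries, Itgax 0.242, 2.31, 6.01 and 27.1 CPM, and Clec7a 0.193, 0.975, 2.57 and 10.8 CPM. Replicate 1 was at sham level for these genes and replicate 4 was higher than any other library of the series for Itgax and Cst7, on separately scaled levels. Spp1 read 16.3, 17.2, 35.5 and 166 CPM, Gpnmb 1.40, 1.92, 4.01 and 23.6 CPM, Trem2 6.62, 9.30, 13.1 and 34.6 CPM, and Tyrobp 9.13, 11.5, 17.97 and 44.1 CPM. For each of these 7 genes replicate 1 was the lowest and replicate 4 the highest, and Apoe reached 3397 CPM in replicate 4 against 1809 to 2139 CPM in the others. In the same library the 18 homeostatic genes summed to 1802 CPM against 1155 to 1360 CPM, the 12 monocyte and border macrophage genes to 31.1 CPM against 17.2 to 19.5 CPM, the 8 astrocyte genes to 4299 CPM against 3087 to 3546 CPM, and the choroid plexus genes to 1460 CPM against 26.5 to 61.7 CPM. The part of these cells in the high values was not tested.

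Against Sham + VH, TBI + CD in the thalamus at 29 dpi gave 0 DEGs among the 10 and 0% among all genes by edgeR, with 9 of 10 at an unadjusted p under 0.05 (815 of 16957 over all genes), while DESeq2 called 5 (Itgax, Clec7a, Cst7, Spp1 and Trem2) of 22 genes in all. The fitted values were 7.29 ± 1.36 for Cst7, 5.40 ± 1.06 for Itgax, 3.88 ± 0.91 for Clec7a, 2.31 ± 0.57 for Spp1 and 2.13 ± 0.69 for Gpnmb. That of Cst7 is a poor measure of size, since no Sham + VH library held more than 5 counts of it. Without replicate 4 these 5 fitted values were 5.65, 3.79, 2.38, 0.97 and 0.50, in the same order. Without replicate 1 Itgax and Cst7 were called by edgeR. Over the 8 fits that left out 1 library, from 0 to 10 of all genes were called. Against TBI + VH the differences were 2.22 ± 0.69 for Gpnmb, 2.13 ± 0.81 for Itgax, 2.09 ± 0.86 for Cst7, 1.62 ± 0.75 for Clec7a and 1.52 ± 0.55 for Spp1, with 0 DEGs (0% of all genes), 7 of 10 at an unadjusted p under 0.05 (380 of 16957 over all genes) and 0 called by DESeq2. Without replicate 4 the same differences were 0.59, 0.52, 0.45, 0.13 and 0.18, so they rested on that library. Sham + CD against Sham + VH and the combined effect gave 0 calls each (0% of all genes, and 0 of the members by DESeq2), with 1 and 2 of the 10 at an unadjusted p under 0.05, and 540 and 577 of all 16957 genes.

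**Figure D4:**
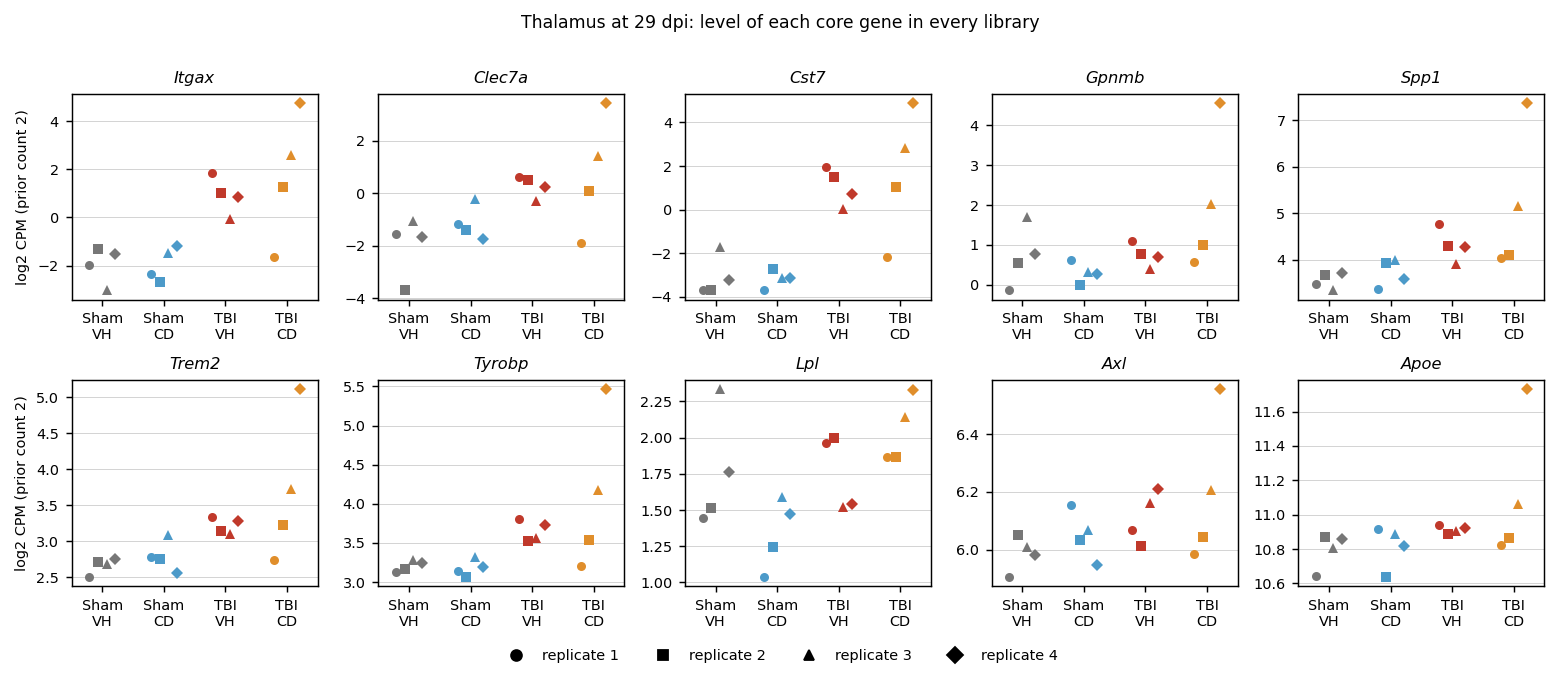
Each point is the CPM of 1 thalamic library on a log2 axis (prior count 2 added) at 29 dpi by gene and group, with a symbol for each replicate number. TBI + CD replicate 4 is the highest point, in CPM before the log, for Cst7 (29.7), Itgax (27.1), Clec7a (10.8), Gpnmb (23.6), Spp1 (166), Trem2 (34.6) and Tyrobp (44.1).

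In the hypothalamus none of the 10 genes was called at either time point. At 3 dpi, TBI + VH against Sham + VH gave 0 of 9 tested genes (0% of all genes), but 5 of 9 had an unadjusted p under 0.05 and were higher, against 1.85% of all genes, and 2 of 9 had no overlap between groups, against 1.13%. Clec7a, 1 of these 2, reached the filter's minimum of 0.424 CPM in 1 of 8 sham and 7 of 8 injured libraries, so it entered through the injured ones. Astrocyte genes summed to 3271 to 3495 CPM in TBI + VH against 2966 to 3180 CPM in Sham + VH, without overlap, and cycling-cell genes to 7.90 to 9.91 CPM against 6.50 to 8.30 CPM; their part in the values of the members was not tested. DESeq2 called 0. Trem2 read 6.61, 6.39, 6.15 and 6.35 CPM in sham and 9.61, 7.46, 8.96 and 8.31 CPM after injury, without overlap (0.43 ± 0.09, unadjusted p = 0.000358). Clec7a read 0.0747, 0.227, 0.287 and 0.461 CPM in sham and 0.520, 0.785, 0.607 and 0.791 CPM after injury, also without overlap (1.33 ± 0.44). Spp1 (1.42 ± 0.60), Tyrobp (0.31 ± 0.12) and Axl (0.16 ± 0.05) were the other 3, with overlapping groups. Spp1 was uneven, from 3.70 to 31.6 CPM per kb over the TBI + VH libraries against 3.64 to 7.18 in Sham + VH. The remaining comparisons of the hypothalamus at 3 dpi each gave 0 calls (0% of all genes, and 0 of the members by DESeq2): TBI + CD against Sham + VH, Sham + CD against Sham + VH, TBI + CD against TBI + VH and the combined effect had 3, 0, 0 and 0 genes at an unadjusted p under 0.05, and 653, 361, 353 and 408 of all 16946 genes.

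At 29 dpi the hypothalamus gave 0 calls among 9 tested genes in all 5 comparisons, by edgeR and by DESeq2. For TBI + VH 0.00583% of all genes were DEGs, and for the other 4 comparisons 0%. The number of the 9 genes at an unadjusted p under 0.05 was 2 for TBI + VH, 1 for TBI + CD, 2 for Sham + CD, 0 between the injured groups and 1 for the combined effect; over all 17165 genes these numbers were 479, 662, 2269, 526 and 885. Trem2 stood at 0.10 ± 0.12 and Tyrobp at 0.11 ± 0.11 in TBI + VH against Sham + VH. Cst7 did not pass the filter in the hypothalamus at either time, and its highest value in any hypothalamic library was 0.355 CPM.

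Regions also differed without injury, and between the hippocampus and either other region Lpl differed the most of the 10. Lpl, which hippocampal neurons are known to express, read 30.6 to 39.4 CPM in the hippocampal Sham + VH libraries at 3 dpi against 3.15 to 4.16 CPM in the thalamus and 1.55 to 2.73 CPM in the hypothalamus, with all regions of the time point scaled together. In the fit of all Sham + VH and other libraries of 3 dpi, 3 of 10 genes were higher in hippocampus than thalamus (40.9% of all genes called, 19.4% higher): Lpl (3.15 ± 0.17), Gpnmb (2.33 ± 0.39) and Tyrobp (0.37 ± 0.14). Against the hypothalamus 4 of 10 were higher (46.7% called, 23.2% higher): Lpl (3.98 ± 0.18), Gpnmb (2.24 ± 0.38), Trem2 (0.68 ± 0.15) and Tyrobp (0.62 ± 0.14). Thalamus against hypothalamus gave 2 (28.6% called, 14.7% higher), Lpl (0.83 ± 0.19) and Trem2 (0.40 ± 0.15). With so large a share of all genes called, the number called is no result about the 10. Tyrobp lost its call against the thalamus without hippocampal replicate 1 or thalamic replicate 2, and Trem2 its call between thalamus and hypothalamus without thalamic replicate 1 or hypothalamic replicate 3 or 4.

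At 29 dpi hippocampus against thalamus gave 3 of 10 (39.3% called, 19.9% higher), Lpl (3.39 ± 0.14), Gpnmb (1.47 ± 0.48) and Trem2 (0.59 ± 0.25). Without Sham + VH replicate 1 of the thalamus, Lpl alone of the 10 was called, and the call of Trem2 was also lost with RLE factors, with no filter and in 6 other fits that left out 1 library. Hippocampus against hypothalamus gave 4 (45% called, 22.2% higher): Lpl (3.63 ± 0.14), Gpnmb (2.26 ± 0.51), Trem2 (0.70 ± 0.25) and Tyrobp (0.57 ± 0.24), which lost its call in 6 of the fits that left out 1 library (hippocampal replicate 2 or 4, or any of the hypothalamus). Thalamus against hypothalamus gave 0 of 10 (32.9% of all genes), 0 at an unadjusted p under 0.05 and 0 by DESeq2. Apoe was not called between any pair of regions, with differences from -0.13 ± 0.12 to 0.09 ± 0.07 over the 6 comparisons, and Axl ranged from -0.14 ± 0.08 to 0.03 ± 0.07. Spp1 was lower in hippocampus than thalamus at 3 dpi in every library (-1.35 ± 0.65, FDR = 0.0742), which was called by DESeq2 and with only the libraries of both groups in the fit.

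**Figure D5:**
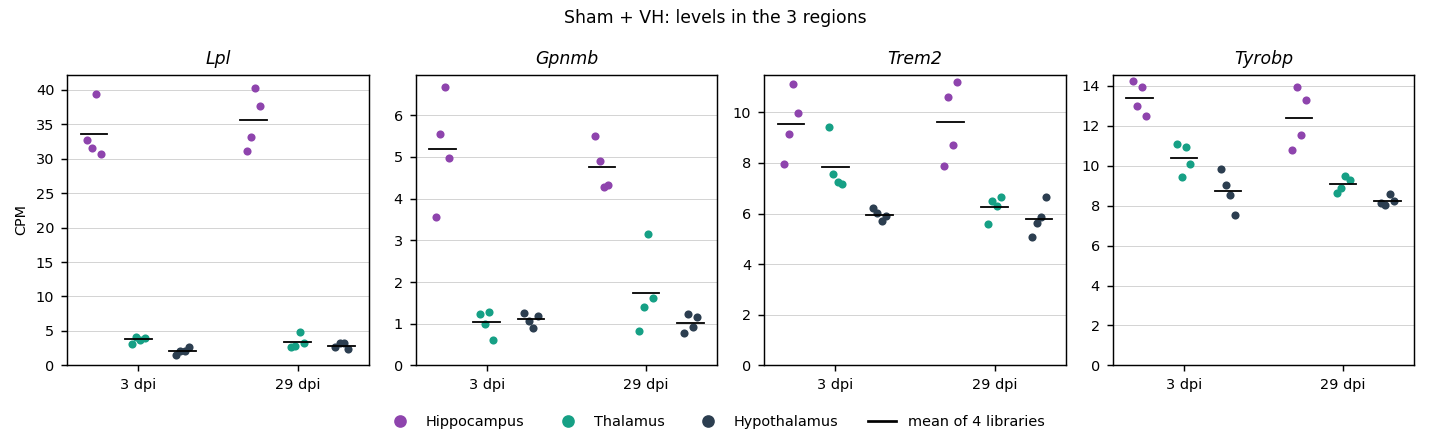
Each point is the CPM (linear axis from 0) of 1 Sham + VH library for Lpl, Gpnmb, Trem2 and Tyrobp, by region and time point, and lines are means of 4 libraries. Lpl lies between 30.6 and 40.3 CPM in the hippocampus and between 1.55 and 4.91 CPM in the thalamus and hypothalamus.

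Genes were ranked by how close their fold changes lay to the median of the members tested in each comparison. That median left out Itgax and Cst7 in the thalamus at 3 dpi and Cst7 in the hypothalamus, where they did not pass the filter. The 18 comparisons were those of TBI + VH, TBI + CD and Sham + CD with Sham + VH, and 15943 other genes were tested in all 6 sets. These comparisons share their Sham + VH libraries, so the likeness is a description. The 10 nearest were Cd14, Osmr, Myo1f, C1qa, C1qc, Ptprc, Fcer1g, Cd84, C1qb and Csf3r, with a mean absolute difference of log2 fold changes of 0.165 for Cd14 to 0.203 for Csf3r. Most are known as genes of myeloid or immune cells, and 3 encode the chains of complement C1q. Cd14 stood at 1.88 and C1qa at 2.19 in the hippocampus at 3 dpi, and at 1.01 and 0.80 at 29 dpi in TBI + VH. The median is built from the members themselves, so how near a member lies to it is in part fixed. Clec7a (0.987) and Lpl (0.706) lay farthest of the 8 members tested in every set.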

How the data were processed

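Libraries were made with a stranded mRNA kit and sequenced paired-end. According to the labels and the study's methods, the authors mapped reads to mm10 with MapSplice and counted them per gene with HTSeq 0.9.1. The deposited values are whole-number counts, 1 table per time point, with no normalization. The gene annotation, the strand setting and the treatment of reads shared by several genes are not given in the sources used here. No column was left without a sample, 63 rows repeated a symbol, and the authors deposited no comparison columns in these tables.

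Each region and time point was fitted as 1 set of 16 libraries with edgeR 4.0.16 (R 4.3.3): filterByExpr, TMM factors, the quasi-likelihood test and Benjamini-Hochberg adjustment over all genes tested. Injury responses between time points or regions, and Sham + VH regions, used fits of 32 or 48 libraries, which made 39 comparisons in all. SE is the absolute log2 fold change over the square root of F. CPM uses the TMM factors of the set. Replicates are separate libraries of 1 group, and p-values measure only the spread between these libraries, which may in part be technical. None of 144 replicate pairs looked like repeat deposits of 1 library (chi-square per degree of freedom from 2.64 to 48.1). The same replicate numbers were not taken to pair the libraries, as in 0 of 36 pairs of groups of 1 region and 0 of 24 pairs of regions of 1 group did all same-number correlations exceed 0.1. That bar is strict, so missing it does not show that the libraries are unpaired. The fits of 48 libraries treat libraries of different regions as independent, which the labels do not settle.

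The rule names all 10 genes in each comparison; where few or none were called, some are given by count only. From each list up to 4 called genes with the largest absolute change and a mean of at least 1 CPM are named; other list genes named were chosen after their values were seen. Some list genes that the rule would name are not reported here. The 10 genes and the lists were chosen with earlier results of these data known. The tests were tested on simulated data. Alternatives were DESeq2 1.42.0, RLE factors, no filter on low counts, FDR alone, a replicate block, a choroid plexus covariate, only the libraries compared, Sham + CD as baseline, and leaving out each library in turn. Gene positions are those of GENCODE vM21 on GRCm38.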

Additional observations from a re-analysis of the deposited data

Results flagged for a closer look

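In 10 of 240 groups of 4 libraries, 1 library stood farther from the other 3 than Dixon's 95% limit on the log2 CPM scale, where chance gives about 1 in 20. Of the hippocampal values at 3 dpi, Gpnmb in TBI + VH replicate 2 was low, at 18.7 CPM against 53.1 to 60.0 in the other 3, and Cst7 in Sham + CD replicate 3 was at 0.0496 CPM, from 1 count, against 0 in the others. Of those at 29 dpi, Itgax in TBI + VH replicate 2 was low, at 2.71 against 5.26 to 5.58 CPM, and Trem2 in TBI + VH replicate 4 was high, at 18.01 against 14.5 to 14.7 CPM. In the thalamus at 3 dpi, Itgax in Sham + CD replicate 1 was low, at 0.101 CPM from 3 counts. In the hypothalamus at 3 dpi, Clec7a (0.407 CPM) and Spp1 (20.3 against 7.56 to 7.92 CPM) were high in Sham + CD replicate 2, and Cst7 was high in TBI + CD replicate 2, at 0.355 CPM. In the hypothalamus at 29 dpi, Axl in Sham + CD replicate 1 was low, at 65.0 against 70.8 to 71.6 CPM, and Apoe in Sham + CD replicate 3 was high, at 2595 against 2212 to 2271 CPM. TBI + CD replicate 4 of the thalamus at 29 dpi was not among the 10.

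A test of the difference between injury responses called 15 values for these genes. The hippocampal response with vehicle was larger at 3 dpi than at 29 dpi by 1.33 for Trem2, 1.29 for Tyrobp and 0.39 for Axl on the log2 scale. With candesartan it was larger at 3 dpi by 4.05 for Cst7, 3.35 for Spp1, 1.96 for Gpnmb, 1.83 for Trem2, 1.59 for Tyrobp and 0.54 for Axl; the fitted value of Cst7 is no measure of size, since Sham + CD at 3 dpi held 1 count of it in all, and its call was lost without Sham + CD replicate 3 of 29 dpi. At 3 dpi with vehicle the hippocampal response exceeded the thalamic one by 3.69 for Spp1, 2.83 for Clec7a, 2.39 for Gpnmb, 1.44 for Trem2, 1.21 for Tyrobp and 0.50 for Axl.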

How the results depend on the processing

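Of 370 values of the 10 genes, 62 were called; 47 of these kept the call in every alternative run for them and 0 reversed. Of the 308 not called, 22 were called in some alternative and 104 changed sign in some alternative. In the hippocampus at 3 dpi, FDR alone called 1 gene (Apoe) for Sham + CD against 0. In the thalamus at 3 dpi the count for TBI + VH, 2, ranged from 1 to 3 when 1 library was left out and was 1 with only the libraries compared, as it was for TBI + CD; DESeq2 and no filter on low counts each gave 3 for TBI + VH. In the hippocampus at 29 dpi the count for TBI + CD, 4, ranged from 2 to 4 when 1 library was left out and was 6 by DESeq2, 5 with FDR alone and 3 with only the libraries compared, and DESeq2 called 1 gene (Gpnmb, adjusted p = 0.00209) between TBI + CD and TBI + VH against 0. In the thalamus at 29 dpi DESeq2 called 5 for TBI + CD against 0 (22 genes in all), and leaving out 1 library gave 0 to 2 (0 to 10 genes in all). The count of larger vehicle responses at 3 dpi than at 29 dpi, 3, ranged from 2 to 5. Between Sham + VH regions, leaving out 1 library gave 1 to 3 for hippocampus against thalamus at 29 dpi (3), 1 to 2 for thalamus against hypothalamus at 3 dpi (2), and 0 to 1 for the same pair at 29 dpi (0), where only the libraries compared gave 1. With the replicate block, which rests on shared numbers only, the count of larger vehicle responses at 3 dpi was 4, with Itgax at -2.49 (FDR = 0.0233) added, and no other count of the 10 changed. Of 144 comparisons of a library with a group of its region, 51 were closest to the same number, and of 96 between regions 44 were. Each had 4 libraries to choose from, and this is a hint from the data and not from the design. With the choroid plexus covariate the calls among all genes in the hippocampus at 3 dpi were 603 for TBI + VH (1796), 1258 for TBI + CD (2030) and 0 for Sham + CD (251), and of the 10 genes Spp1 alone lost its call. The score went largely with the Sham + VH group at 3 dpi, so that fit can hardly separate the score from the groups. The causes of these changes were not tested. Cst7 had at most 8 counts in any sham or hypothalamic library.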
